A study of Mus musculus with 4 samples.

Results

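The proteasome is the protease of the cytosol and nucleus that degrades proteins tagged with ubiquitin. Its barrel-shaped core is built from rings of alpha and beta subunits, and only some of the beta subunits cut peptide bonds. A regulatory particle caps the barrel: its base unfolds substrates with a ring of ATPases, and its lid removes the ubiquitin chain. In cells exposed to interferon, immune beta subunits can replace the standard catalytic ones, and other caps can take the place of the regulatory particle. Neurons rely on the proteasome for protein turnover at synapses and for clearing damaged proteins.

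Proteasome genes were taken as all gene symbols of the count tables that begin with Psm, a letter from a to g and a digit, which gave 50 of 32532 symbols. Of these, 48 were placed in roles: 8 core alpha, 11 core beta, 6 ATPase, 3 further base and 8 lid subunit genes, 5 regulators of the core and 7 assembly chaperones. The other 2 match the name pattern but were given no role. Psmc3ip encodes a protein of meiotic recombination, and Psme2b is a near copy of Psme2.

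The data are ribosome-bound RNA from the deep cerebellar nuclei of adult, untreated mice that carry the Slc17a6-EGFP/Rpl10a transgene (line JX883). Translating ribosome affinity purification (TRAP) pulls down EGFP-tagged polysomes, here from cells in which Slc17a6, the vesicular glutamate transporter gene, drives the tag. The 4 libraries form 1 group, each from 3 mice, with library numbers 1300, 1301 and 1302 for replicates 1 to 3 and 1476 for replicate 4. The labels do not say how the mice were divided, so the spread between libraries may be partly technical. All mice carried the transgene, and without input RNA or a second cell type here, levels cannot be set against those of the whole tissue.

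Counts assigned to genes ran from 9621762 to 10988373 per library. Levels are given as counts per 1000000 (CPM). A count of 0 allows a level of up to 3 counts, or 0.273 to 0.312 CPM depending on the library; these limits cover counting error only. Rn45s, the ribosomal RNA precursor, took 4.92 to 14.2% of these counts, most in replicates 2 and 3. All 7 markers of glutamatergic nuclear neurons reached 1 CPM in every library, with a summed level of 2334 to 2936 CPM. Most of that sum was Slc17a6, the gene that drives the tag, at 2237, 2011, 2014 and 2309 CPM in replicates 1 to 4. The others had means of 342 (Meis2), 91.6 (Lhx9), 36.7 (Lhx2), 7.74 (Tbr1), 7.49 (Eomes) and 6.10 CPM (Irx3). Because the pulldown selects for Slc17a6, the sum is not a measure of purity. Markers of other cells were also present: summed levels ran from 362 to 933 CPM for 4 granule cell genes, from 124 to 733 CPM for 4 Purkinje cell genes, from 434 to 995 CPM for 5 oligodendrocyte genes and from 106 to 263 CPM for 5 astrocyte genes. Car8 made up most of the Purkinje cell sum, with a mean of 293 CPM beside 40.7 (Calb1), 21.8 (Ppp1r17) and 6.99 CPM (Pcp2). Of these 4 genes, 3 reached 1 CPM in every library. The granule cell, Purkinje cell, oligodendrocyte and astrocyte sums were each highest in replicate 3. The share of proteasome RNA that came from such cells was not tested, and in a pulldown fewer cells of a type and less RNA per cell cannot be told apart.

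All 31 standard subunit genes of the core and the regulatory particle that the name pattern covers reached 1 CPM in every library, as did 43 of the 50 proteasome genes. Over the whole table, 34.5% of symbols reached that level. Of the 7 proteasome genes that did not, Psma8 and Psmb11 had no count at all, Psmb8 and Psmb9 had a few counts, and Psmg4, Psme2b and Psmc3ip fell under 1 CPM in at least 1 library. Together the 50 genes held 3390, 2508, 2665 and 2291 CPM in replicates 1 to 4. To compare genes, CPM was divided by the length of all annotated exons of the gene (CPM per kb). On that scale the median of the 43 genes was 17.9 CPM per kb, beside 6.21 over all genes at 1 CPM or more in every library.

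**Figure D1:**
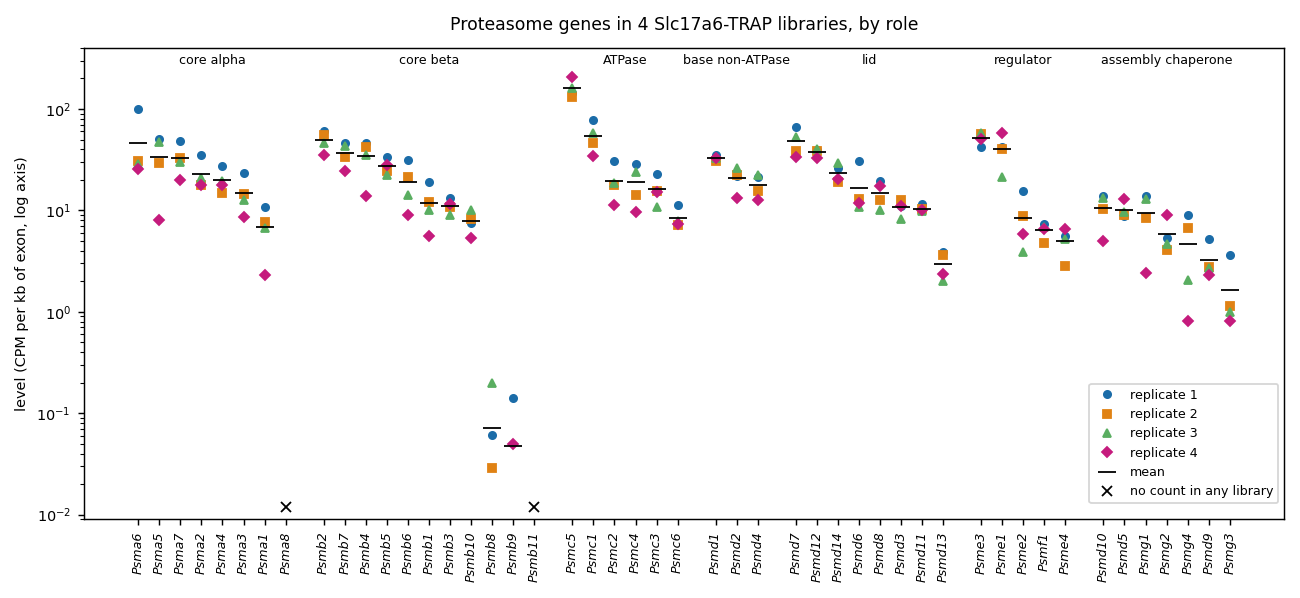
Level of each proteasome gene in CPM per kb of exon (log axis), grouped by role, with a marker per library and a bar at the mean; libraries without a count are not drawn, and crosses mark genes with no count in any library. Psmc5 stands at 161 CPM per kb, above all others, and Psmb8 and Psmb9 lie under 0.2 CPM per kb.

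Psmc5, which encodes an ATPase of the base, was the highest of the proteasome genes. Its 4 libraries held 144, 132, 159 and 208 CPM per kb in replicates 1 to 4, a mean of 161 ± 33.6 (SD, n = 4). Its lowest library lay above the highest library of the next gene, Psmc1, which stood at 77.2, 46.6, 58.6 and 34.5 CPM per kb. Among the 44 genes in the order, from Psmc5 down to Psmg3, the libraries overlapped in the other 42 of 43 neighbouring pairs, so most ranks are not separated by the spread. Below them lay Psmb8, whose highest library (0.198 CPM per kb) was under the lowest library of Psmg3 (0.818 CPM per kb). Among the standard subunit genes the lowest was the lid gene Psmd13 at 2.96 ± 0.922 CPM per kb. Subunits are used in equal numbers within the core and within the regulatory particle, but not always across both. The mean levels of the 31 genes spanned 54.3-fold, or 33.9-fold with the length of the principal transcript. Both ends of this span, Psmc5 and Psmd13, belong to the regulatory particle.

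The order also depends on the length model. The length of the principal transcript was also used in place of all exons, a choice made after the data were seen. Psmc5 then kept the highest mean, at 170 ± 35.6 CPM per kb. Psma7 moved from rank 13 to 2 (110 ± 39.2 CPM per kb) and Psmb7 from rank 9 to 3 (109 ± 29.4 CPM per kb). The libraries of Psmc5 no longer stood apart. In replicate 1, Psma7 (148 CPM over 914 bases) lay above Psmc5 (201 CPM over 1316 bases) per kb. Levels of single genes are therefore given with their length model, and small steps in the order are not read.

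The 7 alpha genes of the standard core had mean levels from 6.85 CPM per kb (Psma1) to 46.1 CPM per kb (Psma6). The alpha subunits form the outer rings and gate the entry to the core. Psma6 owed its place to replicate 1: it stood at 99.4 CPM per kb there and at 30.8, 28.4 and 25.6 in replicates 2 to 4. Psma8, the alpha subunit of testis that replaces Psma7 in germ cells, had 0 counts in all 4 libraries. Against the floor of 3 counts per library, Psma7 was at least 182-fold higher than Psma8 per exon length in every library.

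The catalytic beta genes showed the standard members well above the immune ones. Psmb5, the gene of the chymotrypsin-like subunit, held 30.5, 21.9, 20.1 and 25.03 CPM in replicates 1 to 4, and its lowest library was above every library of its immune counterpart. That counterpart, Psmb8, held 2, 1, 7 and 0 counts, or 10 counts in all against 1004 for Psmb5 (0.986% of the pair, exact Clopper-Pearson 95% interval 0.474 to 1.81%, counting error only). Psmb5 was higher per exon length in 4 of 4 libraries, and at least 345-fold higher in replicate 4, where Psmb8 had no count. The log2 ratio was 7.03 ± 0.68 (SD, n = 4) with 0.5 CPM added to both genes, but with so few Psmb8 counts it depends on that choice: it was 8.44 with 0.1 CPM added, 6.27 with 1 CPM added and 5.12 without division by length. Psmb5 is measured with less certainty than most, since 57.1% of the 50-base stretches in its transcript also occur in other genes, chiefly Gm3375.

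Psmb6, the caspase-like subunit gene, held 59.0, 39.6, 26.7 and 16.7 CPM. Its immune counterpart Psmb9 held 5, 0, 0 and 2 counts, or 7 counts in all against 1439 for Psmb6 (0.484% of the pair, exact 95% interval 0.195 to 0.995%). Psmb6 was higher per exon length in each library, and at least 266-fold and 182-fold higher in replicates 2 and 3, where Psmb9 had no count. The log2 ratio of 6.62 ± 0.71 with 0.5 CPM added is likewise set in part by that choice, with 8.26 at 0.1 CPM, 5.80 at 1 CPM and 5.66 without length. Psmb8 and Psmb9 lie close together in the major histocompatibility region on chromosome 17, at 34197721 to 34201454 and 34181987 to 34187764. On the opposite strand, Psmb9 shares 212 exon bases with Tap1 and Psmb8 shares 498 with Gm20496.

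The immune gene Psmb10 differed from these, with a level that was low but present. It held 12.8, 14.2, 17.2 and 9.01 CPM, against 159, 115, 148 and 83.9 CPM for its standard counterpart Psmb7, the trypsin-like subunit gene. The log2 ratio of Psmb7 to Psmb10 per exon length was 2.19 ± 0.27, with Psmb7 higher in 4 of 4 libraries. With principal transcript lengths the ratio was 3.37. The thymus gene Psmb11, next to Psmb5 on chromosome 14, had 0 counts in every library, and Psmb5 was at least 373-fold higher per exon length.

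Microglia, which can carry immune subunits, were barely represented. Of 8 microglia markers, 1 reached 1 CPM in all libraries, their summed level ran from 6.89 to 14.3 CPM, and C1qa had 0 counts. Markers of endothelium and pericytes summed to 52.6, 13.5, 49.8 and 34.1 CPM in replicates 1 to 4, with 4 of 6 genes at 1 CPM in all libraries. Of 8 interferon-induced genes, 4 reached 1 CPM in every library. B2m, which encodes the light chain of class I molecules, stood at 45.8 ± 12.8 CPM, while the peptide transporter gene Tap1 stood at 0.487 ± 0.857 CPM. The part of these cells and genes in the Psmb10 level was not tested.

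**Figure D2:**
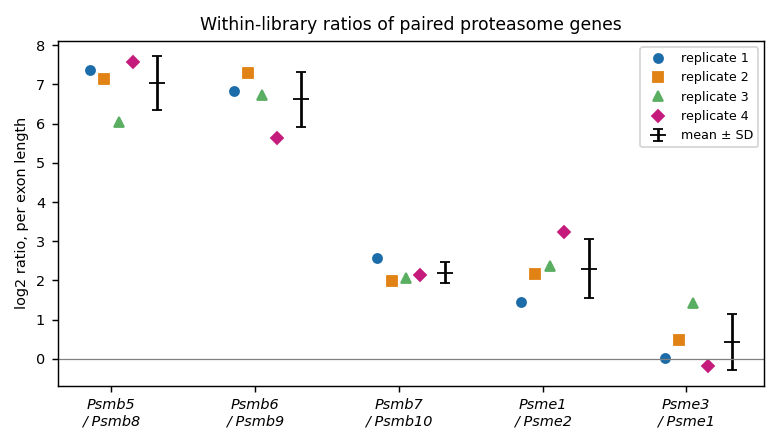
Log2 ratio of the first to the second gene per exon length within each library, from CPM + 0.5, for the 5 pairs in which both genes had counts (the added 0.5 sets the ratio where Psmb8 or Psmb9 had no count); coloured markers are libraries, black bars the mean ± SD (n = 4). All 4 libraries lie above 0 for the standard over the immune genes and for Psme1 over Psme2, and Psme3 over Psme1 falls on both sides of 0.

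The core can also be capped by other regulators. Psme1 and Psme2 encode the subunits of the interferon-inducible cap and neighbour each other on chromosome 14. Psme1 held 93.4, 89.4, 47.3 and 127 CPM, and Psme2 held 27.1, 15.6, 6.90 and 10.3 CPM, so the lowest Psme1 library was above the highest Psme2 library. The log2 ratio per exon length was 2.30 ± 0.74, higher for Psme1 in 4 of 4 libraries. Psme2 is measured with less certainty: 59.3% of the 50-base stretches in its longest transcript also occur in Psme2b, and reads that fit both genes are lost when counting needs a unique place.

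Psme3, the gene of the nuclear cap, was the steadiest regulator at 126, 167, 171 and 150 CPM. Per exon length it stood at 52.1 ± 7.06 CPM per kb and Psme1 at 40.5 ± 14.9 CPM per kb, and their log2 ratio was 0.43 ± 0.72, above 0 in 3 of 4 libraries. With principal transcript lengths that ratio turned to -0.41, so the order of Psme3 and Psme1 was not settled. Psme4, which encodes a large cap protein, and Psmf1, which encodes an inhibitor of the core, stood at 5.01 ± 1.57 and 6.35 ± 1.12 CPM per kb.

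In all, 7 pairs were compared within libraries. The exact sign-flip test over 4 libraries (two-sided) gave p = 0.13 (rounded) for 6 pairs, the smallest value it can give, and p = 0.375 for Psme3 and Psme1, so no pair could pass a threshold of 0.05 by this test. The pairs are therefore described by their counts and by the number of libraries with the same direction.

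The regulatory particle was represented by all its genes. The ATPase genes other than Psmc5 had mean levels from 8.40 (Psmc6) to 54.2 (Psmc1) CPM per kb. Of the other base genes, which bind ubiquitin chains and shuttle proteins, Psmd1 stood at 32.9 ± 1.90, Psmd2 at 20.9 ± 5.38 and Psmd4 at 17.9 ± 4.59 CPM per kb. The lid genes ran from Psmd13 at 2.96 ± 0.922 to Psmd7 at 47.9 ± 15.0 CPM per kb, and Psmd14, the deubiquitinase of the lid, stood at 23.6 ± 4.80 CPM per kb.

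Median levels by role, taken within each library and averaged, were 20.2 CPM per kb for core alpha, 12.6 for core beta, 20.2 for ATPase, 20.9 for the other base, 15.2 for lid, 9.38 for regulator and 5.61 for assembly chaperone genes. The last were thus the lowest class. Among the chaperone genes, which help to build the core and the base and leave the finished particle, Psmd10 stood at 10.6 ± 4.07 and Psmd5 at 10.1 ± 1.92 CPM per kb, and Psmg3 was lowest at 1.65 ± 1.35 CPM per kb. The SD of the medians over libraries was 2.69 for chaperone genes and from 4.13 to 7.97 for the other roles. The core beta value includes the immune genes Psmb8, Psmb9 and Psmb10 and also Psmb11, which had no count, and the core alpha value includes Psma8, which had none either. Over the 7 standard genes of each kind alone, a choice made after the data were seen, the medians were 22.8 ± 8.40 for alpha and 23.6 ± 8.27 CPM per kb for beta, which differ by less than their spread. Steps among the core alpha, ATPase and other base medians were smaller than the SDs of these medians over libraries. The lid median was above that of the other base genes in replicates 1 and 4 and below it in replicates 2 and 3. All roles were measured in the same libraries, so these SDs are not the spread of a difference between roles.

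Subunits differed widely in how steady they were over the libraries. Psmd1, which encodes the largest base subunit, held 258, 224, 237 and 238 CPM, a range of 1.15-fold. The lid genes Psmd11 (73.7, 66.1, 62.3 and 64.2 CPM) and Psmd12 (104, 101, 108 and 87.6 CPM) were almost as steady. Psma5 was the opposite, at 66.8, 38.9, 63.0 and 10.6 CPM, a range of 6.28-fold. In all, 9 of 43 genes differed by more than 3-fold between their highest and lowest library, beside 28.0% of all genes at 1 CPM or more. Of these 9, 6 encode core subunits (Psma1, Psma5, Psma6, Psmb1, Psmb4 and Psmb6), and the others are Psme2, Psmg1 and Psmg3. The 43 genes include 7 core alpha and 8 core beta genes, and a difference between roles in this count was not tested. The median SD of log2(CPM + 0.5) over libraries was 0.45 for the 43 genes and 0.48 for all genes.

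**Figure D3:**
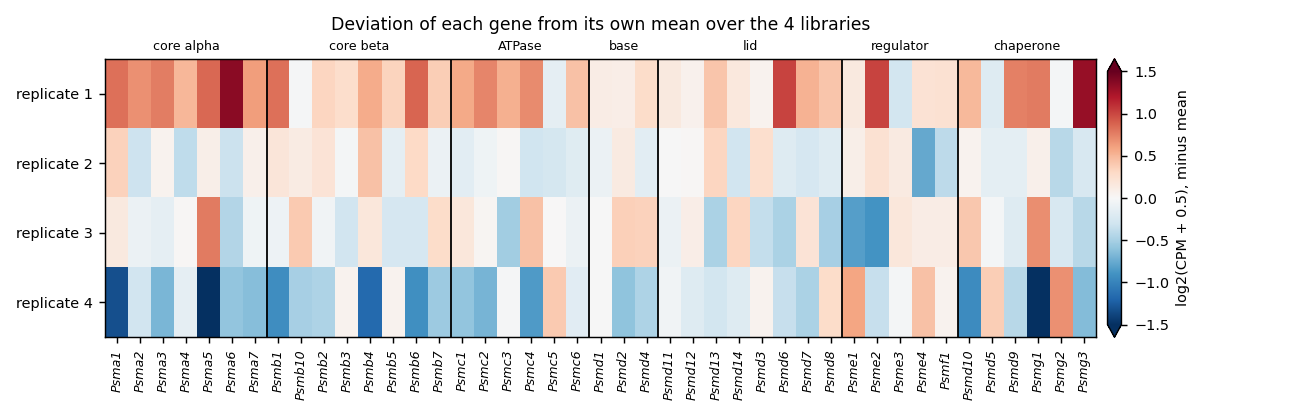
Deviation of log2(CPM + 0.5) from the mean of the gene over 4 libraries, for proteasome genes with 1 CPM or more in every library, grouped by role; red is above the mean, blue below, and the colour scale ends at 1.5 in each direction. Replicate 1 is mostly red and replicate 4 mostly blue in the core genes, and Psmc5, Psmd5, Psme1, Psme4 and Psmg2 are highest in replicate 4.

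By library totals, 18 of 43 proteasome genes were both highest in replicate 1 and lowest in replicate 4. The same share over all genes was not computed, so this count is not read as particular to proteasome genes. Replicate 1 was the highest library for 31 of 43 genes, against 34.7% of all genes, but with TMM scaling, a trimmed mean of ratios between libraries, it was 19 of 43 against 24.4%, and without Rn45s 22 of 43 against 29.3%. TMM scaling moved the median deviation of all genes in replicate 1 from 0.13 to -0.01 and that of the proteasome genes from 0.44 to 0.29. Replicate 4 was the lowest library for 22 of 43 genes, against 37.0% of all genes; with TMM it was 21 of 43 against 30.3%, and without Rn45s 28 of 43 against 41.7%. Summed over the core alpha genes, levels were 655, 356, 380 and 251 CPM in replicates 1 to 4, and over the core beta genes 543, 421, 405 and 256 CPM. Regulator genes did not share this order, with 340, 327, 313 and 384 CPM. Scaled by library totals, 5 of 43 genes were highest in replicate 4 (Psmc5, Psmd5, Psme1, Psme4 and Psmg2), against 25.2% of all genes. With TMM it was 10 of 43 against 32.6%.

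To ask whether a library stood apart in single genes, each library was set against the other 3 over all 15083 genes that passed the filter on low counts (edgeR, quasi-likelihood test). With 1 library on one side, the spread comes only from the other 3, and the lone library is assumed to vary like them. Of the 50 proteasome genes, 46 passed the filter, and Psma8, Psmb8, Psmb9 and Psmb11 did not. In no comparison did a proteasome gene pass an adjusted p of 0.05 in edgeR. Over all genes, the calls in either direction were 0.0199% for replicate 1, 0% for replicate 2, 0% for replicate 3 and 0.0464% for replicate 4 (0.0398% higher and 0.00663% lower). Without adjustment, 2, 0, 1 and 7 of the 46 genes had an edgeR p under 0.05 in replicates 1 to 4. The shares over all genes were 3.30, 0.517, 7.01 and 14.7%, so the 15.2% of proteasome genes in replicate 4 was near the background. DESeq2 gave 2, 0, 1 and 9 by the same count, which in replicate 4 is 19.6% beside 16.5% of all genes. After adjustment DESeq2 called 0, 0, 0 and 2 of them, and over all genes 0.172, 0.0464, 0.583 and 2.55% (in replicate 4, 0.948% higher and 1.6% lower).

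The 2 genes that DESeq2 called were Psma5 and Psmb4, both lower in replicate 4; edgeR called neither, and replicate 4 has no replicate of its own in this comparison. Psma5 encodes an alpha ring subunit, and its log2 fold change in replicate 4 was -2.24 ± 0.52 (SE, edgeR adjusted p = 0.161, DESeq2 adjusted p = 0.00429). Psmb4 encodes a beta subunit without catalytic activity and held 89.8, 82.5, 68.1 and 26.8 CPM. Its log2 fold change was -1.42 ± 0.41 (SE, edgeR adjusted p = 0.193, DESeq2 adjusted p = 0.0383). For both genes the value of replicate 4 lay below all others. Of the 50-base stretches of Psma5, 55.4% also occur in transcripts of other genes, chiefly Gm8394, which GENCODE lists as a processed pseudogene.

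The median log2 fold change of the 46 genes was 0.38 in replicate 1 (-0.10 over all genes tested), -0.15 in replicate 2 (-0.09), -0.03 in replicate 3 (-0.10) and -0.48 in replicate 4 (-0.16). These medians rest in part on replicate 1: without it the median was 0.03 in replicate 2, 0.10 in replicate 3 and -0.16 in replicate 4, and without replicate 2 it was -0.12 in replicate 3. Transcript length moved with this pattern. Proteasome transcripts are short, with a median principal transcript of 1440 bases, beside 3331 bases over all genes. Among all genes with principal transcripts of up to 1000 bases, the median deviation was 0.54 in replicate 1 and -0.57 in replicate 4, and above 6000 bases it was -0.02 and 0.09. A length trend was also fitted in each library, on the length of all exons rather than of the principal transcript. With this trend taken out, the median of the 46 genes was 0.19 in replicate 1 (-0.12 over all genes), -0.24 in replicate 2 (-0.12), -0.01 in replicate 3 (-0.09) and -0.11 in replicate 4 (-0.06). It moved towards 0 in replicates 1, 3 and 4 and away from 0 in replicate 2.

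**Figure D4:**
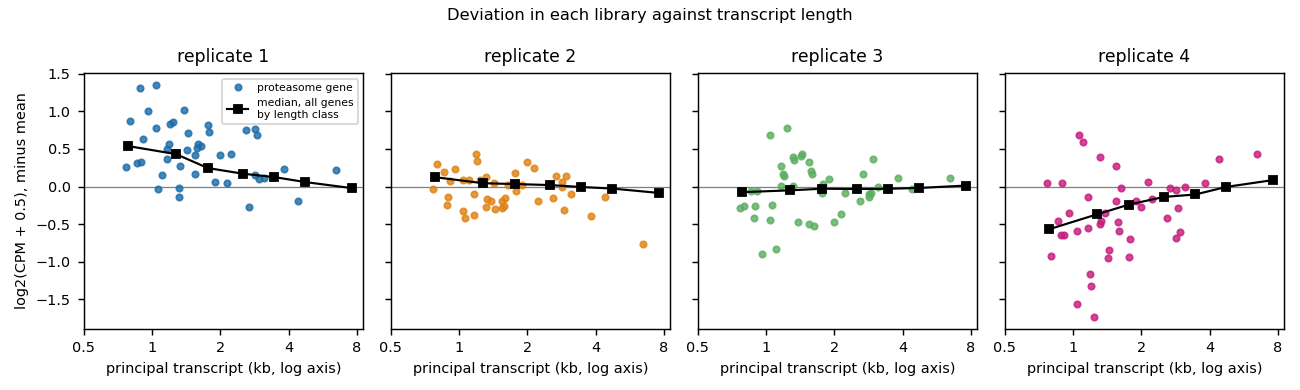
Deviation of log2(CPM + 0.5) from the mean of the gene in each library, against the length of the principal transcript (kb, log axis); coloured points are proteasome genes and black squares the medians of all genes with 1 CPM or more in 7 length classes. The medians of all genes fall from 0.54 to -0.02 with length in replicate 1 and climb from -0.57 to 0.09 in replicate 4, and most proteasome genes lie at the short end.

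Other complexes were set beside the proteasome genes. Of 82 cytosolic ribosomal protein genes, 77 reached 1 CPM in every library, with a median of 33.2 CPM per kb, a median SD of 0.69 and replicate 1 the highest library for 90.9% of them. Of 9 chaperonin genes, 7 did, with a median of 22.8 CPM per kb and a median SD of 0.45. These are descriptions, and differences between the gene sets were not tested.

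The rest of the pathway was read from a list of 29 genes, of which 28 were among the symbols and 27 reached 1 CPM in all libraries. All 28 were tested, and none passed an adjusted p of 0.05 in edgeR in any of the 4 comparisons; at an unadjusted p under 0.05 there were 1, 0, 1 and 3, the last being 10.7% beside 14.7% of all genes tested. DESeq2 called 0, 0, 0 and 1, beside 2.55% of all genes in replicate 4. Nfe2l1, which encodes the transcription factor that raises proteasome genes when the proteasome is impaired, was the highest at 81.7 CPM per kb, and in CPM it held 416, 483, 421 and 458. Ubqln2, the gene of a ubiquitin shuttle protein, stood at 65.2 CPM per kb, and Uba1, the gene of the main ubiquitin-activating enzyme, at 56.7 CPM per kb. Pomp, the chaperone gene for core maturation, held 208, 228, 219 and 155 CPM. Adrm1 and Sem1, which encode further ubiquitin receptor and lid subunits outside the name pattern, stood at 19.3 ± 5.38 and 14.9 ± 10.7 CPM, the latter under its older symbol Shfm1. The polyubiquitin gene Ubb stood at 5.41 ± 2.26 CPM, and 61.03% of its 50-base stretches also occur in other transcripts, so its level is uncertain.

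The pathway gene that DESeq2 called was Ubqln2, higher in replicate 4. It held 199, 191, 116 and 366 CPM, a log2 fold change in replicate 4 of 1.28 ± 0.33 (SE, edgeR adjusted p = 0.169, DESeq2 adjusted p = 0.0335). Its value in replicate 4 was above those of the other 3 libraries.

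Sequences that flank the transcription starts were read for what the genes share beyond their names. RefSeq windows of 300 bases (250 before to 50 after the start, GRCm38.p6, the same assembly as mm10) were found for 42 of the 50 genes. They were searched on both strands for short motifs. The ETS core CCGGAAG, bound by a large family of factors common at housekeeping promoters, was found for 14 of 36 proteasome genes at 1 CPM or more with a window (38.9%), beside 19.99% of 8354 such genes overall and 8.86% of all 32851 windows. All windows of proteasome genes, with or without the motif and at any level, had a higher median GC content. It was 57.3% against 52.7% over all windows. The windows below are examples and not all matches. They show the core, in capitals, with 10 bases on each side, on the strand of the gene. CTTCCGG is the same motif read on the other strand, and none of these matches overlapped another motif searched.
Psma6 (chr12:55398813-55398839, plus strand): cgccggtgctCCGGAAGcagtagccat
Psmc1 (chr12:100110164-100110190, plus strand): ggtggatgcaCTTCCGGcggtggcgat
Psmd2 (chr16:20651616-20651642, plus strand): ccgcagggcgCTTCCGGtctggaggac
Psmd11 (chr11:80428594-80428620, plus strand): gagggcgggtCTTCCGGgtgtgtgttt
Psmd12 (chr11:107479501-107479527, plus strand): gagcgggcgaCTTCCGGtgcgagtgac
Psmd6 (chr14:14120974-14121000, minus strand): agagacgcgaCCGGAAGtcagactggc
The motif stands in the windows of the steady genes Psmd11 and Psmd12 and of Psma6, which varied more. It was not found in the window of Psmd1, which was steadier than these. A link between the motif and steadiness was not tested.

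The core of the antioxidant response element, TGACNNNGC, is the kind of site that the product of Nfe2l1 binds. It was found for 6 of 36 proteasome genes with a window (16.7%), close to the 17.0% of genes overall. Of the standard catalytic genes, Psmb5 and Psmb6 hold it just before the start, while Psmb7 had no window to search. Psmb5 and Psmb6 are shown because they are the genes set against the immune pair above.
Psmb5 (chr14:54618024-54618052, minus strand): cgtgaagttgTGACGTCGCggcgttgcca
Psmb6 (chr11:70525338-70525366, plus strand): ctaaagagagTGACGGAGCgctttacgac
The interferon-stimulated response element core (GAAA, any 2 bases, GAAA) was found for 4 of 36 (11.1%, beside 3.29% overall). These were Psmb3, Psmd4, Psmd9 and Psme1. The windows of the immune genes Psmb8, Psmb9 and Psmb10 and of Psme2 held no match. The match in Psme1 lies at position 9 from the RefSeq start and reads on the other strand.
Psme1 (chr14:55578493-55578522, plus strand): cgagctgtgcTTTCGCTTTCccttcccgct
The CCAAT box was found for 12 of 36 (33.3%, beside 42.9% overall), and the core of nuclear respiratory factor 1 (GCGCA, any base, GCGC) for 7 of 36 (19.4%, beside 12.1%). A match is a run of letters and does not show that a factor binds there.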

How the data were processed

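Ribosome-bound RNA of 4 libraries was analysed, in 1 group. Each deposited file holds raw counts per gene symbol for 1 library. The submitters' processing notes name STAR 2.0.0e, HTSeq and mm10. Annotation, strandedness and kit: not given in the sources used here. Of the 50 proteasome genes, 12 share exon bases with a gene on the other strand. Reads with no feature (14.1 to 21.1% of counted reads), not unique (14.2 to 20.6%) and ambiguous (2.04 to 2.94%) stayed out of totals and tests. Counts carry no molecular identifiers.

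CPM used the sum over symbols. Lengths came from GENCODE M21 (73.4% of symbols and all 50 members): the union of exons, the longest transcript, or the APPRIS principal transcript (chosen after the data were seen). Ratios used CPM + 0.5. Tests of 1 library against the rest used R 4.3.3 and edgeR 4.0.16 (filterByExpr, TMM factors, robust glmQLFit, glmQLFTest), two-sided, with Benjamini-Hochberg adjustment over all genes tested and a threshold of 0.05. Each SE is the fold change divided by the root of its F. DESeq2 1.42.0, other scalings, no filter, a length offset (lowess on the union of exons) and leaving out replicates were alternatives. The edgeR script was tested on simulated data. Stretches of 50 bases were matched between GENCODE transcripts of different genes; the read length of the libraries was not known.

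The members and lists were chosen with earlier results of these data known. Named are all members, pathway genes called in any comparison, and the 3 highest and the lowest pathway gene by level (the last is not reported here); Pomp, Adrm1, Sem1, Ubb and Ubqln2's DESeq2 call were named after their values were seen. Protein kinase and binding-protein symbols were left out of the ribosomal protein genes. No promoter window was found for Psma8, Psmb1, Psmb2, Psmb7, Psmc3, Psmd3, Psmd7 and Psmg2.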

Additional observations from a re-analysis of the deposited data

Results flagged for a closer look

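In 2 of 48 proteasome genes with a count, 1 of the 4 libraries lay far from the others: the gap to its neighbour, divided by the whole range of log2(CPM + 0.5), was above Dixon's 95% critical value for 4 samples. Psma6, a core alpha gene, had a ratio of 0.864, with 123 CPM in replicate 1 and 38.0, 35.1 and 31.6 CPM in the others. Psmc6, an ATPase gene, had a ratio of 0.837, with 39.3 CPM in replicate 1 and 25.3, 27.2 and 25.7 CPM in the others. Chance flags about 1 in 20 groups, and 5.98% of all genes at 1 CPM or more in every library passed the same value. The log2 fold change of Psma6 in replicate 1 was 1.61 ± 0.43 (SE, edgeR adjusted p = 1.0).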

How the results depend on the processing

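No paired analysis was possible because the 4 libraries form 1 group. The count of proteasome genes called in replicate 4 against the other 3 moved from 0 to 2 with the DESeq2 Wald test (Psma5 and Psmb4) and to 1 without a filter on low counts (Psma5, adjusted p = 0.00831); it was 0 under the other alternatives run, and 0 under all of them for replicates 1 to 3. Over all genes, the edgeR calls for replicate 4 were 7 of 15083, and 384 with DESeq2, 416 without a filter, 3 with the length trend taken out and 74 to 125 when replicate 1, 2 or 3 was left out. For replicate 1 they were 3, and 26 with DESeq2, 32 without a filter and 7 to 31 when a replicate was left out; for replicate 3 they were 0, and 88, 86 and 1 to 33; for replicate 2 they were 0, and 7, 0 and 0 to 2. The number of proteasome genes at 1 CPM and their median SD moved little under each of the 6 alternatives run for them. Among pathway genes, Ubqln2 in replicate 4 was called with DESeq2 and without a filter (adjusted p = 0.0335 and 0.0111), and Rps27a in replicate 1 without a filter (adjusted p = 0.0457). The cause of these moves was not tested.

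The ratio Psme3/Psme1 reversed to -0.41 with the principal transcript as length. The ratio Psmb5/Psmb8 was 6.21 with the longest transcript, 5.12 without length, 8.44 and 6.27 with pseudocounts of 0.1 and 1 CPM, and 5.98 with the principal transcript. For Psmb6/Psmb9 it was 5.66 without length and 8.26 and 5.80 with those pseudocounts, and for Psmb7/Psmb10 it was 3.197 without length and 3.37 with the principal transcript. In libraries where the second gene has no count, as for Psmb8 in replicate 4 and Psmb9 in replicates 2 and 3, the pseudocount sets the ratio. Where it has none in any library the whole value is set so: 8.03 for Psmb5/Psmb11 (5.62 without length, 10.33 and 7.06 with the other pseudocounts) and 7.28 for Psma7/Psma8 (7.92 longest, 8.47 principal, 9.60 and 6.29 with the other pseudocounts). No ratio changed sign when a replicate was left out.

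Role medians move with the length model. Over the standard core genes alone the core beta median was 23.6 in place of 12.6, since the genes left out are low or at 0. With the longest transcript they were 8.62 for assembly chaperone, 28.1 for other base, 30.6 for core alpha, 24.5 for core beta, 27.4 for lid and 16.7 for regulator genes. With the principal transcript they were 43.6 for ATPase, 8.70 for assembly chaperone, 37.7 for other base, 30.6 for core alpha, 29.8 for core beta, 30.7 for lid and 16.7 for regulator genes. In CPM without length they were 73.0 for ATPase, 13.6 for assembly chaperone, 84.3 for other base, 49.4 for core alpha, 25.3 for core beta, 59.8 for lid and 44.0 for regulator genes. Assembly chaperone genes were the lowest class under each length model run. Depth leaves Psmb8 and Psmb9 with 10 and 7 counts over 4 libraries, too few to rank them.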
